A study of Mus musculus with 6 samples.

Results

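S100 proteins, annexins, galectins and vimentin are described here in mouse CD4+CD25+ T cells sorted by surface ILT3, a receptor of the leukocyte immunoglobulin-like family that dampens immune cell activation. The 10 genes were chosen by name, with earlier results of these data known, out of 38924 gene models in the tables, and each had a row. They are S100a4, S100a6, S100a10, S100a11, Anxa1, Anxa2, Anxa3, Lgals1, Lgals3 and Vim. There were 3 samples of ILT3+ and 3 of ILT3- cells. Both groups came from wild-type, untreated, syngeneic male and female mice of 10 to 16 weeks, a strain not being named in the labels. Spleen and mesenteric lymph node cells were enriched for CD4+CD25+ cells on magnetic columns and then sorted into ILT3+ and ILT3- fractions. CD4+CD25+ cells are rich in regulatory T cells but are no pure population of them. The labels do not say how many animals a sample holds or whether samples share animals, and p-values therefore reflect sample-to-sample spread that may be technical in part.

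S100 proteins are small EF-hand proteins that bind partner proteins, in most cases when calcium rises. Annexins bind membrane phospholipids in the presence of calcium, and several pair with an S100 protein: annexin A2 with S100A10, and annexin A1 with S100A11. Galectins bind galactose-bearing glycans on the cell surface and can cross-link receptors, and galectin-1 is a known product of regulatory T cells. Vimentin forms the intermediate filament network of leukocytes. As a group these genes are known for high expression in antigen-experienced and migrating T cells, and several are also abundant in macrophages, neutrophils and stromal cells.

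Sequencing depth was 9334370 to 13648274 total gene reads per library. Levels are given as CPM, reads per 1000000 on library sizes adjusted with TMM factors, and 3 values of a group stand in the order of samples 1, 2 and 3. A count of 3 reads corresponds to 0.218 to 0.360 CPM. Both samples numbered 1 stood apart from the other 4, with 2.27% and 2.96% of their reads from mitochondrial rRNA against 1.13% to 1.66%. The gene of ILT3, named Lilrb4 in the tables, was at 3.24 to 5.81 CPM in ILT3- and 284 to 407 CPM in ILT3+ libraries, as labelled. The T cell and regulatory T cell markers Cd3e, Cd4, Foxp3 and Ctla4 were at 427 CPM or more in all 6 libraries, and the 9 markers of that list had adjusted p of 0.574 or more (edgeR).

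All 10 genes had a positive log2 fold change, and 6 passed the test: S100a4, S100a6, S100a11, Anxa1, Anxa3 and Lgals3 rose in ILT3+ cells. A gene counts as called at an adjusted p under 0.05 in edgeR's quasi-likelihood test over 13694 tested genes. Of all tested genes 1.96% were called higher and 0.343% lower. The median log2 fold change was 1.77 over the 10 genes and -0.02 over all tested genes. As the 10 were chosen with earlier results of these data known, such contrasts describe them and are no test of the group. Of the 10, 9 had enough reads to pass the expression filter in the ILT3- libraries alone, while Anxa3 passed only through its reads in ILT3+ cells and therefore had to be higher there. The same 6 were called on exon reads alone (1.79% of tested genes higher), on uniquely placed reads (2.23%), in DESeq2 (5.09%) and without ILT3+ sample 1 (1.51%). Without ILT3- sample 3, 0 of the 10 were called by edgeR and 27 genes in all (0.187% higher). The CPM ranges of the groups did not overlap in 7 of the 10, the called genes and S100a10, against 11.4% of all tested genes in that direction. In bulk samples fewer cells of a type and less RNA per cell cannot be told apart. Some markers of dendritic and innate lymphoid cells were also higher in ILT3+ libraries, and others were not (values are given with the marker lists). Together the 10 genes took 0.0698% to 0.0853% of the reads of ILT3- libraries and 0.136% to 0.197% of those of ILT3+ libraries.

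**Figure D1:**
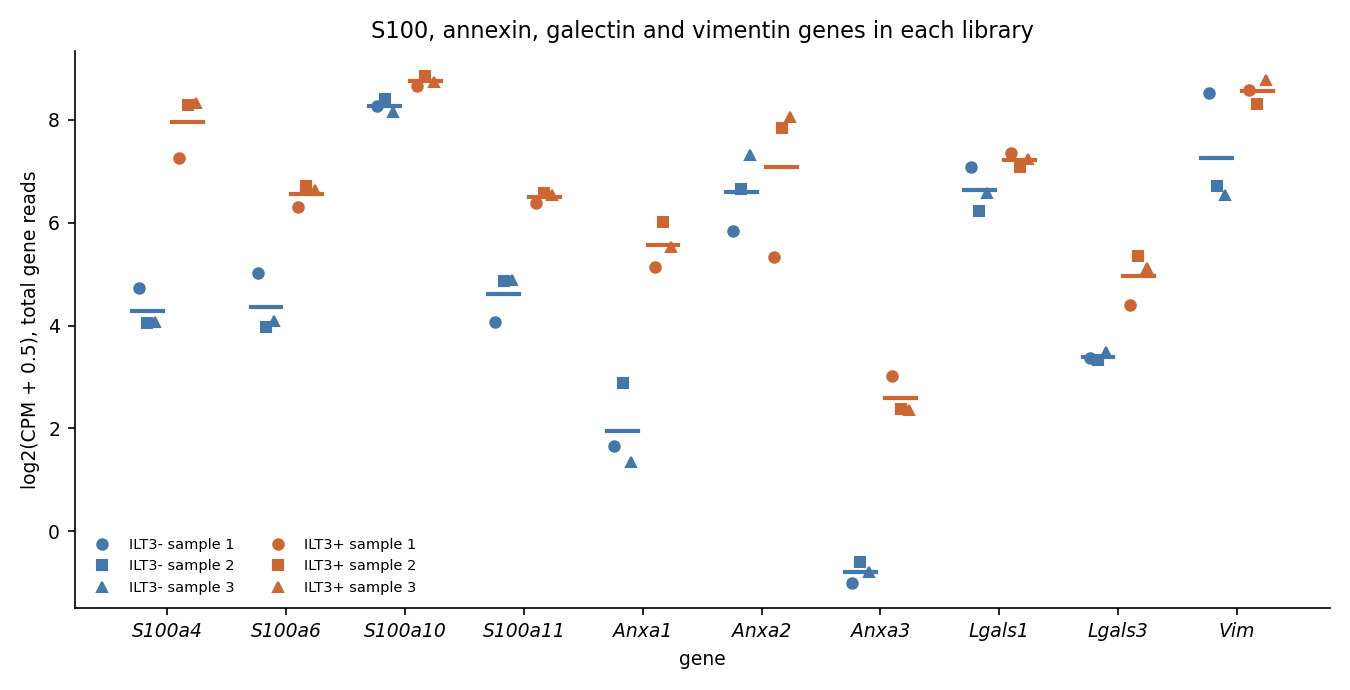
Level of each of the 10 genes in every library, as log2(CPM + 0.5) of total gene reads, with ILT3- in blue and ILT3+ in orange, the symbol giving the sample number and the bar the mean of 3. The groups are apart for S100a4, S100a6, S100a10, S100a11, Anxa1, Anxa3 and Lgals3 and overlap for Anxa2, Lgals1 and Vim.

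S100a4 had the largest rise of the S100 genes. It encodes a protein that binds the heavy chain of non-muscle myosin and is tied to cell motility, and lies on chromosome 3 from 90603770 to 90606045 (GRCm38, plus strand). It measured 26.2, 16.0 and 16.2 CPM in the ILT3- libraries against 152, 312 and 321 CPM in the ILT3+ libraries. Every ILT3+ library was above every ILT3- library, with ILT3+ sample 1 the lowest of its group and ILT3- sample 1 the highest of its own. The log2 fold change came to 3.75 (SE 0.37, edgeR adjusted p = 0.00520), from a mean of 19.5 ± 5.82 to 262 ± 95.4 CPM (SD, n = 3 each). All of its reads were uniquely placed, and 4.08% in ILT3+ and 2.79% in ILT3- cells lay in introns. On total exon reads the log2 fold change was 3.71. Leaving out ILT3- sample 3 ended the call (adjusted p = 0.0546), leaving out any of the other 5 libraries did not, with adjusted p from 7.04e-22 to 0.0546 over 17 alternatives.

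S100a6, which encodes calcyclin, lies 9.12 kb downstream of the S100a4 start, at 90612894 to 90614414. It measured 32.1, 15.1 and 16.6 CPM in the ILT3- libraries against 79.1, 104 and 98.5 CPM in the ILT3+ libraries. ILT3- sample 1 was again the highest and ILT3+ sample 1 the lowest of its group, so the samples numbered 1 were closer to each other than the other pairs. The rise on the log2 scale was 2.15 (SE 0.33), with an adjusted p of 0.0189 in edgeR. S100a11, whose product binds annexin A1, lies on the same chromosome at 93520488 to 93526287. It measured 16.3, 28.5 and 28.9 CPM in the ILT3- libraries against 83.5, 94.7 and 92.4 CPM in the ILT3+ libraries. For S100a11 the ILT3+ libraries lay close together (90.2 ± 5.93 CPM, SD, n = 3), and the gene rose by 1.87 on the log2 scale (SE 0.26, edgeR adjusted p = 0.0144). Only 62.2% of its reads in ILT3+ and 79.9% in ILT3- cells were uniquely placed, so part of them may belong to near-identical copies, and on unique reads the log2 fold change was 1.501. The calls of S100a6 and S100a11 were kept without ILT3- sample 1 or ILT3+ sample 1 and lost without any one of the other 4 libraries, with adjusted p from 1.52e-07 to 0.0974 and from 1.15e-08 to 0.0781 over the alternatives.

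S100a10 had the highest level per length of the 4 S100 genes in ILT3- cells and the smallest fold change. Its product, p11, is the S100 protein that no longer binds calcium and joins annexin A2 in a complex at the membrane. The gene, at 93555080 to 93564643 on chromosome 3, measured 307, 338 and 286 CPM in the ILT3- libraries against 405, 462 and 429 CPM in the ILT3+ libraries. The lowest ILT3+ value was above the highest ILT3- value, but the log2 fold change of 0.48 (SE 0.17) did not pass the test (adjusted p = 0.242, edgeR). With the sample number as a block it did (0.48, adjusted p = 0.0449), but not with the block on exon reads (0.46, adjusted p = 0.0576). The block on gene reads called 573 genes higher, 4.18% of those tested, and adjusted p over the alternatives ran from 0.0449 to 0.569.

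Among the 10 genes, the 3 S100 genes that rose lie on 1 chromosome. The sequences just upstream of these 3 are shown to compare the genes where transcription starts. The stretches are from RefSeq (GRCm38.p6, plus strand, 5′ to 3′) and end at the base before the gene model in the tables, at chr3:90603520-90603769, chr3:90612644-90612893 and chr3:93520246-93520487. Capitals mark matches, on either strand, to any of 5 motifs. The element TATAAA positions the start of transcription, and TGANTCA is bound by AP-1. Factors of the Sp and KLF families bind GGGCGG, NF-Y binds CCAAT, and Runx factors bind TGTGGT.
S100a4: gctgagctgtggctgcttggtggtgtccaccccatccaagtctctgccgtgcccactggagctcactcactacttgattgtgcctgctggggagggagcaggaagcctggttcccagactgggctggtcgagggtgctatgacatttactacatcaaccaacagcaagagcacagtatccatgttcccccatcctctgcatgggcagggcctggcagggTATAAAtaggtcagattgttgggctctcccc
S100a6: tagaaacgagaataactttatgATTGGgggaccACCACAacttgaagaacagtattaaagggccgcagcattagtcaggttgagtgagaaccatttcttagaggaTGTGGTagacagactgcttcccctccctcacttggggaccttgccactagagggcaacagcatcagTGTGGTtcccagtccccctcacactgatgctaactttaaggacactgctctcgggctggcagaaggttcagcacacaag
S100a11: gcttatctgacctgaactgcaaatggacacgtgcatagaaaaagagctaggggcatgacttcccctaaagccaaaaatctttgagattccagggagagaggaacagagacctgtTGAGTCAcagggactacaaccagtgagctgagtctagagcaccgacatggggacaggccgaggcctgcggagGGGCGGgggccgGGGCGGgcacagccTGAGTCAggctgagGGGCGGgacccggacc
The S100a4 stretch held 1 match, TATAAA at position -31, counted back from the first base of the gene. The S100a6 stretch held 1 NF-Y and 3 Runx matches, and the S100a11 stretch 2 AP-1 and 3 Sp and KLF matches. No motif of the 5 occurred in more than 1 of the 3. In the 250 bases before the start, TATAAA was found in 12.4% of 32851 RefSeq promoters, TGANTCA in 6.75%, GGGCGG in 32.7%, CCAAT in 33.8% and TGTGGT in 14.05%. A RefSeq promoter was in hand for 7 of the 10 genes, of which 4 held TATAAA (S100a4, Anxa1, Anxa2 and Vim), 2 TGANTCA, 3 GGGCGG, 3 CCAAT and 1 TGTGGT. These are matches of letters, not sites shown to be bound.

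The rise was not shared by all genes around S100a4. The S100 cluster with 50000 bases on either side holds 18 gene models, of which 7 were tested and 3 called higher (S100a1, S100a4 and S100a6), where 1.96% of all tested genes were. S100a1, a calcium sensor best known from muscle, measured 0.961, 0.786 and 0.436 CPM in the ILT3- libraries against 7.22, 6.43 and 6.70 CPM in the ILT3+ libraries (log2 fold change 3.22, SE 0.57, adjusted p = 0.0324, edgeR). It passed the expression filter only through its ILT3+ reads, and so had to be higher there. Leaving out any 1 library other than ILT3- sample 1 ended the call, with adjusted p of 7.11e-06 to 0.139 over the alternatives. S100a13, its neighbour on the opposite strand, averaged 31.2 CPM in the ILT3- and 41.6 CPM in the ILT3+ group (0.42, SE 0.21, adjusted p = 0.438). It was not called, but its groups did not overlap, as in 11.4% of all tested genes in that direction. It measured 33.8, 28.5 and 31.3 CPM in the ILT3- against 38.2, 44.3 and 42.4 CPM in the ILT3+ libraries. The flanking genes Ilf2, Snapin and Chtop had log2 fold changes of -0.12, 0.12 and -0.10 (adjusted p = 0.884, 0.862 and 0.874). The genes next to S100a4 on both sides, S100a3 and S100a5, were at most at 0.563 CPM in any library. S100a8 and S100a9, the abundant calprotectin genes of neutrophils, had 0 and 2 reads over all 6 libraries.

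**Figure D2:**
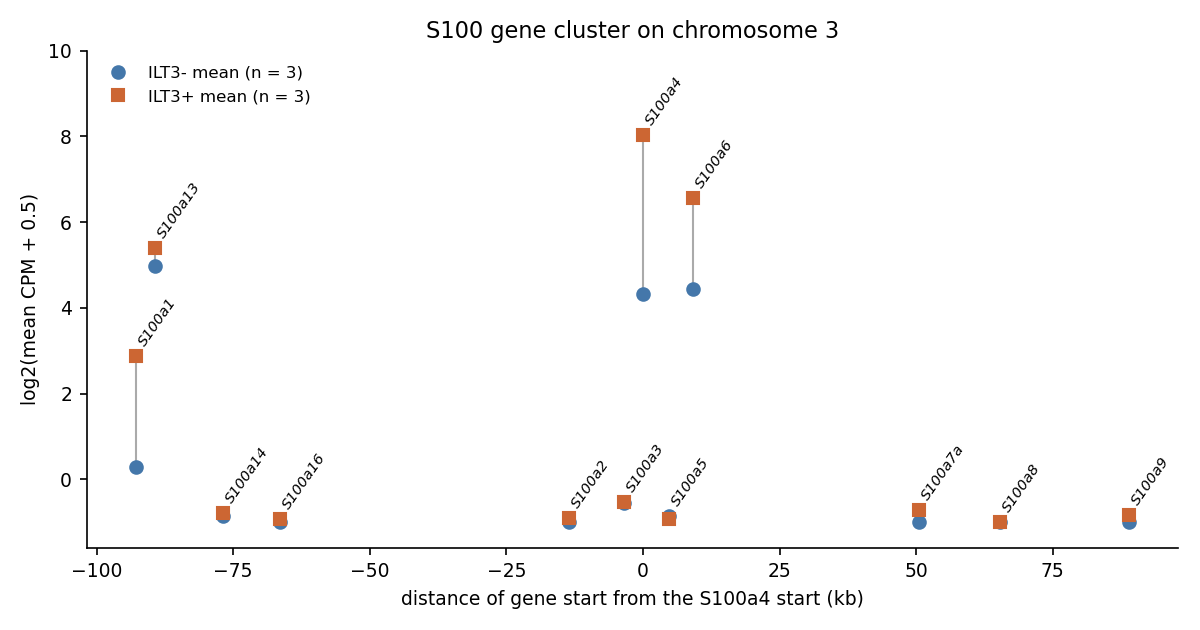
Mean level in ILT3- (blue circles) and ILT3+ cells (orange squares), as log2(mean CPM + 0.5), of the 12 S100 genes of the cluster against the distance of their start from that of S100a4 in kb. S100a4, S100a6 and S100a1 are far apart between the groups, S100a13 differs little, and the other 8 lie near the floor in both.

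Among the annexins, Anxa1 and Anxa3 rose. Annexin A1 limits inflammation through formyl peptide receptors and is induced by glucocorticoids. Its gene (chromosome 19, 20373428 to 20390944, minus strand) measured 2.64, 6.84 and 2.04 CPM in the ILT3- libraries against 34.8, 64.2 and 45.5 CPM in the ILT3+ libraries. Every ILT3+ library was far above every ILT3- library, and ILT3- sample 2 was the highest of its group. On the log2 scale the rise was 3.64 (SE 0.52, edgeR adjusted p = 0.0159), and 3.73 on exon reads. The call survived the loss of ILT3+ sample 1 and of ILT3- samples 1 or 2. It did not survive the loss of ILT3- sample 3 (adjusted p = 0.0722) or of ILT3+ samples 2 (0.0819) or 3 (0.0685), in a range of 6.34e-11 to 0.0819 over the alternatives.

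Anxa3, whose product is abundant in neutrophils and other myeloid cells, was the least abundant of the 10 genes. It lies on chromosome 5 from 96793385 to 96845968 and had 0, 2 and 1 reads in ILT3- samples 1, 2 and 3 against 81, 58 and 58 in ILT3+ samples 1, 2 and 3. The ratio was 64.2 (exact 95% counting interval 21.6 to 314), and the adjusted p was 0.0161 (edgeR). Of the ILT3+ reads 52.8% lay in introns. The 93 ILT3+ reads in exons, 41 of them spanning a junction, faced 0 exon reads in ILT3- cells. Taking 3 reads for that whole group as the floor, exon reads were at least 29.99-fold higher. The call held on exon reads (adjusted p = 0.0471) but not with the sample number as a block on exon reads (0.0718). It was kept without ILT3- sample 1 or ILT3+ sample 1 and lost without any one of the other 4, with adjusted p from 1.99e-06 to 0.101 over the alternatives.

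Anxa2, the partner of S100a10, did not pass the test, and the groups overlapped. The gene (chromosome 9, 69453620 to 69491795) measured 56.8, 99.9 and 159 CPM in the ILT3- libraries against 40.0, 231 and 265 CPM in the ILT3+ libraries. ILT3+ sample 1 was the lowest of all 6 libraries, and ILT3+ samples 2 and 3 were the highest. An antisense gene model that overlaps Anxa2, Gm16144, had 1 read in ILT3- and 0 in ILT3+ cells. The fitted difference on the log2 scale was 0.76 (SE 0.64, edgeR adjusted p = 0.710), and it was 1.24 without ILT3+ sample 1 (adjusted p = 0.208). Over the 17 alternatives it was never called, with adjusted p from 0.0616 to 0.949.

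The galectin genes differed in size of change. Lgals3 (chromosome 14, 47367751 to 47386160), which encodes a galectin that cross-links glycoproteins, measured 9.85, 9.51 and 10.7 CPM in the ILT3- libraries against 20.6, 40.6 and 34.1 CPM in the ILT3+ libraries. The ILT3- libraries were nearly equal (10.0 ± 0.604 CPM, SD, n = 3), and each ILT3+ library was above them. The log2 fold change of 1.67 (SE 0.33) passed narrowly (adjusted p = 0.0480, edgeR), and the call was lost in limma voom (adjusted p = 0.0713) and without any one library other than ILT3+ sample 1, over an adjusted p of 0.000124 to 0.206. Lgals1 (chromosome 15, 78926725 to 78930465) measured 135.5, 74.5 and 95.55 CPM in the ILT3- libraries against 163, 134 and 150.5 CPM in the ILT3+ libraries. The groups overlapped through ILT3- sample 1, and the log2 fold change of 0.55 (SE 0.24) did not pass (adjusted p = 0.363, from 0.0606 to 0.645 over the alternatives).

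Vim was high in both samples numbered 1. The gene (chromosome 2, 13573927 to 13582826) measured 370, 104 and 92.9 CPM in the ILT3- libraries against 384, 315 and 438 CPM in the ILT3+ libraries. ILT3- sample 1 lay within the ILT3+ range, and the other pairs differed by 1.60 and 2.24 on the log2 scale against 0.05 for the samples numbered 1. Over all 6 libraries the log2 fold change of 1.01 (SE 0.51) did not pass (edgeR adjusted p = 0.454). It was called without ILT3- sample 1 (1.94, adjusted p = 0.00934) and without both samples numbered 1, a setting added after the values were seen (1.96, adjusted p = 0.00278). In the other 15 alternatives it was not called, up to an adjusted p of 0.735. Without both samples numbered 1, 7 of the 10 genes were called, the 6 above and Vim, where 4.48% of tested genes were called higher.

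**Figure D3:**
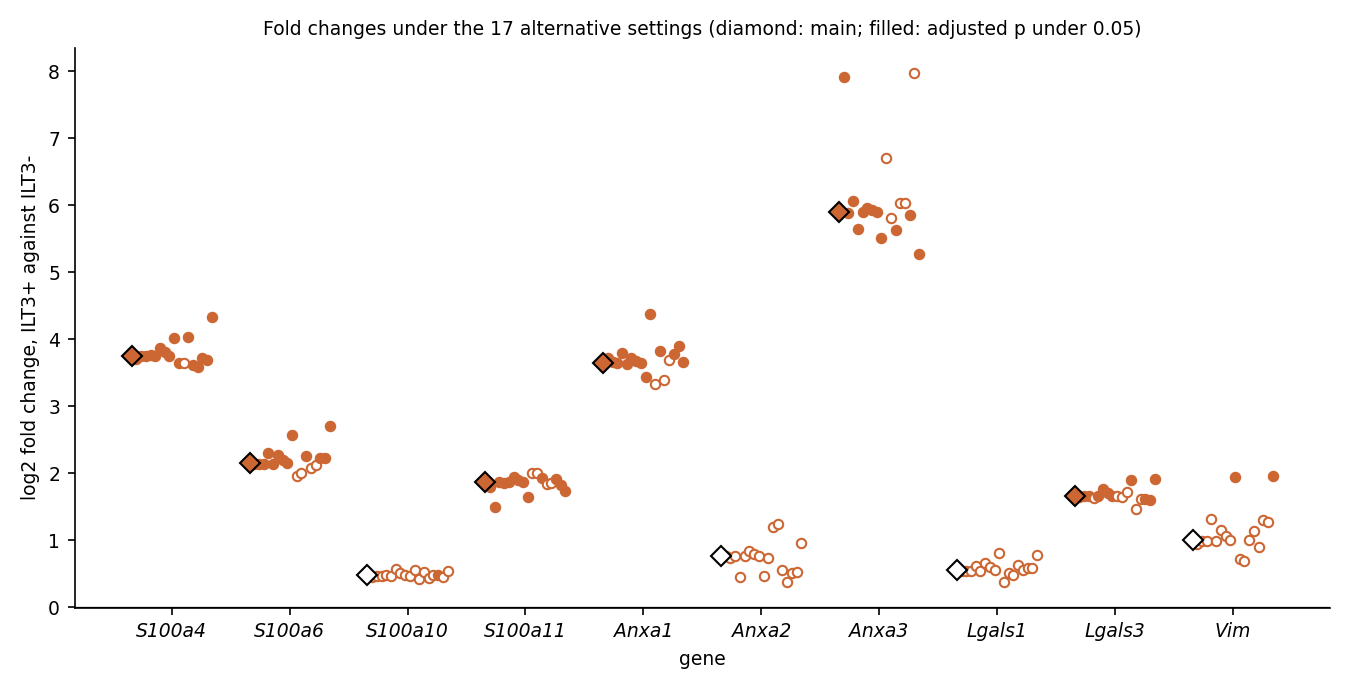
Log2 fold change of each of the 10 genes, ILT3+ against ILT3-, with all samples (diamond) and under 17 alternatives (circles), filled where the adjusted p is under 0.05. All values are above 0, S100a4 stays between 3.59 and 4.33, and Anxa2 and Lgals1 are open throughout.

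Levels can be compared between genes only per length, here as exon reads per kilobase of exon and per 1000000 reads. S100a10 led in ILT3- cells at 328 ± 31.9 (SD, n = 3), apart from all others, followed by Lgals1 (167 ± 54.9), Vim (109 ± 94.0), S100a11 (62.5 ± 15.8), S100a4 (44.2 ± 15.04), S100a6 (39.1 ± 19.2) and Anxa2 (35.2 ± 16.3). Each of these from Lgals1 to Anxa2 overlapped its neighbour in that order, and Lgals3 (7.08 ± 0.497) and Anxa1 (1.72 ± 1.28) lay below them without overlap. In ILT3+ cells S100a4 stood at 574 ± 204 and S100a10 at 448 ± 14.04, overlapping each other. Lgals1 (242 ± 26.8), S100a11 (218 ± 20.7), Vim (210 ± 35.4) and S100a6 (172 ± 23.9) followed, each overlapping the next. Anxa2 (60.01 ± 39.98), Anxa1 (22.8 ± 7.81) and Lgals3 (22.1 ± 6.68) came after them, and Anxa3 was last at 2.16 ± 0.572. By mean level on this scale S100a4 was the fifth of the 10 genes in ILT3- cells and the first in ILT3+ cells.

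Other members of these families mostly did not pass the test. Of 57 other family, filament and partner genes 56 were in the tables and 31 were tested, of which 3 were called higher and 0 lower, where 2.31% of all tested genes were called in either direction. The 31 had a median log2 fold change of 0.29, and 25 of them passed the filter in ILT3- libraries alone. Of the 3 called (S100a1, Krt18 and Tlr4), S100a1 and Krt18 were among the 6 that did not and passed through ILT3+ cells. The count of 3 fell to 1 without ILT3+ sample 1, where Lmna alone was called, and to 0 without ILT3- sample 2, ILT3- sample 3, ILT3+ sample 2 or ILT3+ sample 3. It was 6 without ILT3- sample 1 (1.91% of all tested genes higher) and 6 in DESeq2 (5.09%). With the sample number as a block it was 5 (4.18%), and without both samples numbered 1 it was 9 (4.48%). Of the S100 family 2 further genes were tested, and S100a1 was called. Of 5 further annexins 0 were called by edgeR, by DESeq2 or by limma voom, 1 (Anxa11) had an unadjusted p under 0.05 in edgeR, and all 5 had positive values. Without both samples numbered 1, Anxa5 and Anxa11 were called higher. The most abundant, Anxa6, Anxa5 and Anxa11, had log2 fold changes of 0.41, 0.69 and 0.76 (adjusted p = 0.735, 0.407 and 0.183). Of 5 further galectins 0 were called by these tools and 0 had an unadjusted p under 0.05 in edgeR, with Lgals9, Lgals8 and Lgals4 at -0.06, -0.16 and -0.57 (adjusted p = 0.981, 0.862 and 0.738). Lgals9 was at 308 and 275 CPM in the samples numbered 1 and at 108 to 122 CPM in the other 4.

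Of 5 further filament and lamin genes Krt18, a keratin, was called, with 36, 30 and 21 reads in the ILT3+ and 0 in the ILT3- libraries. By the same floor of 3 reads it was at least 28.3-fold higher. Like Anxa3 it passed the filter only through ILT3+ cells. The Krt18 call was lost on exon reads (adjusted p = 0.0518, edgeR) and with the block on exon reads (0.0749). Leaving out any 1 library other than ILT3- sample 1 also ended it. Its adjusted p ran from 0.000245 in DESeq2 to 0.132 over the alternatives. Plec, Lmnb1 and Lmnb2, a linker of filaments and the B-type lamins, had log2 fold changes of 0.06, 0.81 and 0.29 (adjusted p = 0.939, 0.149 and 0.673). Lmna, named after its values were seen, measured 11.1, 4.40 and 6.18 CPM in the ILT3- libraries against 17.9, 62.3 and 67.2 CPM in the ILT3+ libraries (2.78, adjusted p = 0.0545). The Lmna groups did not overlap. It was called on exon reads (3.56, adjusted p = 0.048, edgeR), on unique reads (0.0499) and in DESeq2 (2.54e-05). It was not called in limma voom (0.115) or with the block on gene reads (0.0643), and adjusted p reached 0.21 over the alternatives. Among 14 tested binding partners and receptors, Tlr4, a receptor for some extracellular S100 proteins, was called higher (2.83, SE 0.54, adjusted p = 0.0419), from 2.52, 1.81 and 1.60 to 22.6, 9.01 and 10.4 CPM. Leaving out any 1 library ended the Tlr4 call, as did exon reads (adjusted p = 0.0641, edgeR) and limma voom (0.0628). Its adjusted p ran from 1.64e-05 in DESeq2 to 0.169 over the alternatives. Myh9, the myosin bound by S100A4, was at -0.08 (adjusted p = 0.926), and Ptprc and Mgat5 were at -0.38 each (adjusted p = 0.395 and 0.355). Ager, which encodes RAGE, another receptor for S100 proteins, lay in the other direction, at 8.41, 7.94 and 2.76 CPM in ILT3- and 0.281, 2.09 and 0.160 CPM in ILT3+ cells. The groups did not overlap, and its log2 fold change of -2.89 (SE 1.01) did not pass in edgeR (adjusted p = 0.247, from 0.0486 in DESeq2 to 0.5 over the alternatives). It is named here after its values were seen. With the sample number as a block 3 partner genes were higher (Tlr4, Ahnak and Havcr2) and 1 was lower (Ptprc), with adjusted p of 0.0186, 0.0378, 0.0165 and 0.0479. That fit called 4.18% of all tested genes higher and 2.62% lower.

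**Figure D4:**
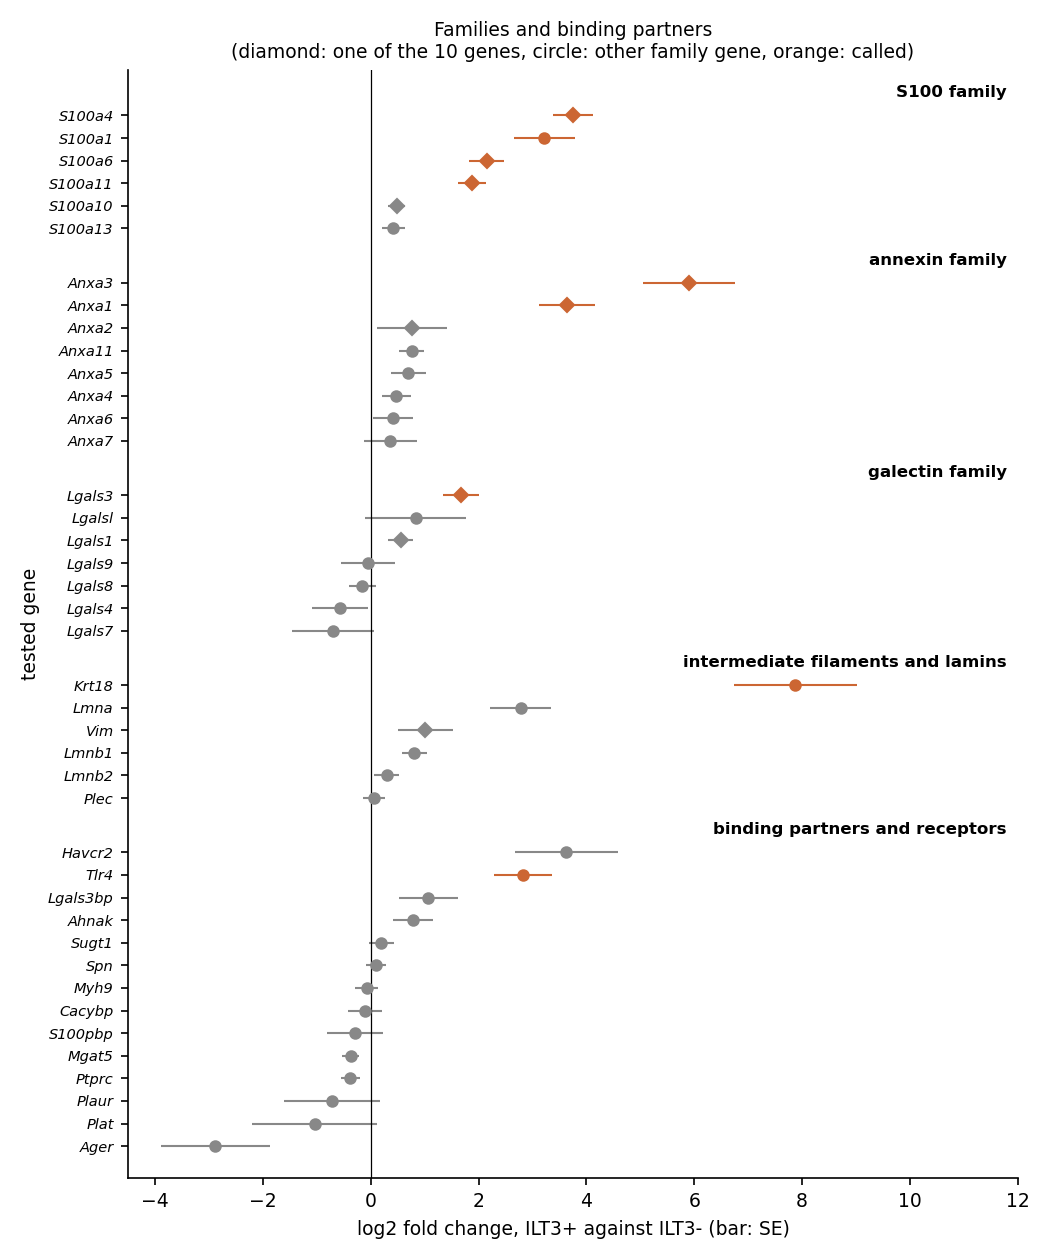
Log2 fold change with its SE for each tested gene of the 4 families and of the partner list, with the 10 genes as diamonds and called genes in orange. The called genes lie at the upper end of each family, Havcr2 lies above Tlr4 among the partners without a call, and the value of Krt18 is a fitted one against 0 reads, not a bound.

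Markers of other cell types that express these genes were measured in the same libraries. The summed CPM of 20 monocyte and macrophage markers was 34.8 to 78.2 in ILT3- libraries and 1367, 135 and 102 in ILT3+ samples 1, 2 and 3, with Csf1r at 266, 2.25 and 0.399 CPM and Vcam1 at 339, 3.14 and 5.26 CPM in the latter. All 12 tested genes of the list had positive log2 fold changes, with a median of 2.85, and 1 was called, Ccr2, which T cells also express. With the sample number as a block 4 were called (Ccr2, C1qb, C1qc and Adgre1), where 4.18% of all tested genes were called higher. S100a4, S100a6, S100a11, Anxa1 and Lgals3 had their lowest ILT3+ value in ILT3+ sample 1, while Anxa3 had its highest there (7.60 against 4.66 and 4.63 CPM). Without ILT3+ sample 1 the same 6 genes were called. Their log2 fold changes were then 4.03, 2.26, 1.92, 3.83 and 1.90 for S100a4, S100a6, S100a11, Anxa1 and Lgals3 and 5.63 for Anxa3. The macrophage marker sums of ILT3+ samples 2 and 3, 135 and 102 CPM, were still above those of the ILT3- libraries. The part of macrophages in these values was not tested. Of 18 dendritic cell markers 13 were tested and 8 called higher (Cd74, H2-Aa, H2-Ab1, H2-Eb1, Ciita, Batf3, Ccl22 and Fscn1), while Cd209a had no reads and Clec9a had 1. Itgax had 49, 0 and 1 reads in ILT3+ samples 1, 2 and 3 and 0 in ILT3- cells. Flt3 had a log2 fold change of 0.15 (adjusted p = 0.955, edgeR), and Siglech had 15 reads in ILT3- and 10 in ILT3+ cells. The 18 markers summed to 622 to 2328 CPM in ILT3- and 2340 to 3297 CPM in ILT3+ libraries. Cd74 rose from 131 to 150 CPM in the ILT3- libraries to 1148 to 1724 CPM in the ILT3+ libraries, whereas Ccr7, which T cells also express, made up 366 to 2106 CPM of the ILT3- sums and was at 241 to 667 CPM in ILT3+ libraries. Summed markers of NK and innate lymphoid cells were at 30.8 to 34.4 and 353 to 397 CPM, with Kit, Fcer1g and Tyrobp called. Most of the ILT3+ sums came from Kit (125 to 220 CPM) and Fcer1g (140 to 153 CPM). Klrb1c and Ncr1 reads fell mainly in ILT3+ sample 1, which held 255 and 62, against 2 and 0 in ILT3+ sample 2. Eomes, which was not tested, had 74 reads in ILT3- and 15 in ILT3+ cells, and Klra8 had none. The Eomes reads were 50, 22 and 2 in ILT3- and 9, 4 and 2 in ILT3+ samples 1, 2 and 3, and the groups overlapped. Gzma, also not tested, had 2 reads in ILT3- and 92 in ILT3+ cells. The latter were 11, 74 and 7 in ILT3+ samples 1, 2 and 3, so most came from ILT3+ sample 2. The part of dendritic and innate cells in the rises was not tested. Of 13 neutrophil markers none had enough reads for a test and 6 had no reads at all, with sums of at most 3.48 CPM, mostly from Ltf (3.36 CPM in that library), and Mmp8 at most at 1.69 CPM. Erythroid and platelet markers summed to 2.11 to 11.4 and 43.2 to 206 CPM, with Hba-a1 and Hba-a2 called and Hba-a2 and Hbb-bs the most abundant. B cell markers summed to 22.7 to 37.4 and 36.6 to 80.6 CPM, with Cd79b and Cd79a the most abundant of them. Stromal and endothelial markers summed to 146 to 327 and 94.5 to 189 CPM, nearly all from Pecam1. Against the direction of these sums, Pdgfrb was called higher (adjusted p = 0.00995, edgeR). It had 2, 1 and 1 reads in the ILT3- and 68, 106 and 115 in the ILT3+ libraries.

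Casp1, Tec and Ube2c were among the 5 genes outside all lists whose pattern lay nearest to the mean profile of the 10, out of 8524 candidates of at least 10 CPM. Likeness was the root mean square difference of centred log2 CPM over the 6 libraries, which was 0.12 for Casp1, 0.14 for Tec and 0.18 for Ube2c. The mean profile of the 10 was -0.96, -1.01 and -1.12 in ILT3- and 0.70, 1.20 and 1.19 in ILT3+ samples 1, 2 and 3. Casp1, the inflammatory caspase, was at 8.63 ± 0.514 and 41.0 ± 8.81 CPM, and Tec, a kinase of antigen receptor signalling, at 16.2 ± 1.58 and 70.5 ± 10.3 CPM in ILT3- and ILT3+ cells (SD, n = 3). Ube2c, a ubiquitin-conjugating enzyme of mitosis, was at 7.95 ± 1.63 and 28.4 ± 4.99 CPM (SD, n = 3).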

How the data were processed

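Total RNA of sorted cells was sequenced in 6 libraries. Per the labels' protocols, 1 ng per sample went into SmartSeq V2 full-length cDNA and Nextera XT libraries. The genome is GRCm38 per the submitters' processing notes. The sources used here name no aligner, counting tool, annotation or strand setting. The authors deposited read counts per gene. Per the file headers these are total and unique reads of gene, exon and intron, and total gene reads, the sum of exon and intron reads, were tested. Lengths in bases, also deposited, served only for levels per kilobase.

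edgeR 4.0.16 in R 4.3.3 was run with TMM factors, filterByExpr (count 10 and total 15 at least), a fit by group with robust quasi-likelihood dispersion, and Benjamini-Hochberg adjustment over all tested genes at 0.05. SE is the log2 fold change over the root of F. The step was tested on simulated data with the same dispersion for every gene and no effect of sample number. That run therefore does not show how calls fare under the sample differences seen here. DESeq2 1.42.0 and limma 3.58.1 were alternatives. No 2 libraries were alike within sampling noise (chi-square over df at least 18.3), and each counted as 1 sample. Same-numbered samples deviated together (r = 0.40, 0.26 and 0.27), which the labels do not explain, and 2 of the 6 differently numbered pairs were also positive (0.16 and 0.12). The main fit has no block, and the sample number as a block is an alternative. Intervals and floors cover counting error only, as reads carry no molecular identifiers.

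Genes and lists were chosen with earlier results of these data known. Named genes are the 10, every called family gene and the 3 most abundant others of each family, called or most abundant markers of other cells, and the 5 genes nearest in pattern, of which some are not reported here. Of 168 listed symbols 164 were in the tables by name, 1 by a RefSeq synonym (Adgre1 as Emr1) and 3 were not matched.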

Additional observations from a re-analysis of the deposited data

How the results depend on the processing

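No log2 fold change of the 10 genes changed sign under the 17 alternatives. The 6 called genes were the same on exon reads, on unique reads, in DESeq2, with RLE size factors, with library totals alone, without a filter and without the robust fit. With 2 samples left in a group, 0 to 6 of the 10 genes were called, and over all genes 27 to 274 were higher and 1 to 48 lower. The fewest, 0 of the 10, came without ILT3- sample 3, where 27 genes were higher over all genes, and the cause was not tested. Of the 10, 2 were called without ILT3- sample 2 (S100a4 and Anxa1), 1 without ILT3+ sample 2 and 1 without ILT3+ sample 3 (S100a4 in both), and 6 without ILT3- sample 1, with Vim in and Lgals3 out. The number of genes called in the whole table was 697 higher and 254 lower in DESeq2, 573 and 359 with the replicate block, 415 and 285 with the block on exon reads, and 625 and 161 without both samples numbered 1 (a setting chosen after seeing the data), against 269 and 47, and 29 were lower on exon reads. The blocked fit called 7 of the 10 genes, S100a10 besides the 6, and on exon reads 5, without Anxa3. S100a10 was not called with the block on exon reads either. Library totals moved the median over all genes by 0.08 on the log2 scale. At 0 to 2 reads per library in ILT3- cells, depth limits Anxa3 and Krt18 to a ratio with a wide interval or a bound.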
